A study of Mus musculus with 6 samples.

Results

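The genes of G1 phase control were described after knockdown of Gaa in C2C12 cells (mouse myoblasts that form myotubes when serum is lowered). The set was chosen by symbol and holds 10 genes of the 24421 in the count table. It comprises the cyclins Ccnd1, Ccnd2, Ccnd3 and Ccne1, the cyclin-dependent kinases Cdk4 and Cdk6, the kinase inhibitors Cdkn1b and Cdkn2c, and the pocket proteins Rb1 and Rbl2. All 10 passed the filter on low counts. The shGAA group held 3 libraries of cells that had received a lentiviral short hairpin RNA against Gaa, the gene of lysosomal acid alpha-glucosidase, and the shScrambled group held 3 libraries of cells with a scrambled hairpin. Both groups were selected with puromycin, grown in 10% fetal bovine serum and then differentiated in 2% horse serum, with glucose at 4.5 g/l, and carry the word Fed in their titles, which the labels do not explain. The labels give neither the number of hairpin sequences nor whether libraries stem from separate infections or cultures, so the p-values below cover the spread between libraries only, some or all of which may be technical.

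In G1 phase the D cyclins bind CDK4 or CDK6 and the cyclin E proteins bind CDK2, and these kinases phosphorylate the pocket proteins RB1, RBL1 (p107) and RBL2 (p130). Unphosphorylated pocket proteins hold E2F transcription factors and keep genes of DNA synthesis off. CDKN2C (p18) belongs to the INK4 inhibitors, which block CDK4 and CDK6, and CDKN1B (p27) belongs to the CIP/KIP inhibitors, which act on cyclin-bound kinases including CDK2. Myoblasts leave the cell cycle before they fuse, with RB1 needed for a lasting exit, and cyclin D3 is the D cyclin known to stay abundant in myotubes while cyclin D1 declines.

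The libraries held 9224038 to 10430270 counts, and expression is given as CPM, the count relative to the TMM-scaled library size on a common scale. Gaa averaged 49.1 ± 2.43 CPM in shGAA and 117 ± 9.43 CPM in shScrambled (SD, n = 3 each), so 42.1% of its RNA was left. Of 11801 tested genes, 38.2% were called at an adjusted p under 0.05 in edgeR's quasi-likelihood test, 18.5% higher and 19.7% lower in shGAA. Higher genes made up 48.4% of the calls, against 60.0% when libraries were scaled by size alone (2809 higher and 1872 lower, in place of 2182 and 2330). The library shScrambled 1 stood apart from its group, where the chi-square of its counts, divided by the degrees of freedom, was 5.31 and 5.87 against the other shScrambled libraries, compared with 1.95 to 2.54 among shGAA libraries and 2.25 between shScrambled 2 and 3. The 16 myotube markers summed to 2489 to 2722 CPM in shGAA and 3299 to 3722 CPM in shScrambled, so RNA of this list was present in both groups. Most of the sum came from Des, at 1570 to 1717 CPM in shGAA and 2012 to 2087 CPM in shScrambled. In cultures of mixed cells, fewer cells of a type and less RNA per cell cannot be told apart.

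Of the 10 genes, 3 were higher and 3 lower in shGAA, and 4 did not pass the test. Cdk4, Ccnd2 and Rbl2 rose, and Ccnd1, Cdk6 and Cdkn2c fell. The called share was 60% for the set, beside 38.2% of all tested genes and 42.7% of the 7180 tested genes whose mean CPM lay within the range of the set. The set was picked with earlier results known, so no test of this share is given. The changes were small, between -0.43 and 0.26 on the log2 scale, and the median of the set was 0.00, against 0.01 for all tested genes. The same 6 genes had groups that did not overlap in CPM, a pattern found in 49.6% of all tested genes (24.7% higher, 24.9% lower). Summed over the set, the shGAA libraries held 1482 to 1536 CPM and the shScrambled libraries 1544 to 1634 CPM.

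**Figure D1:**
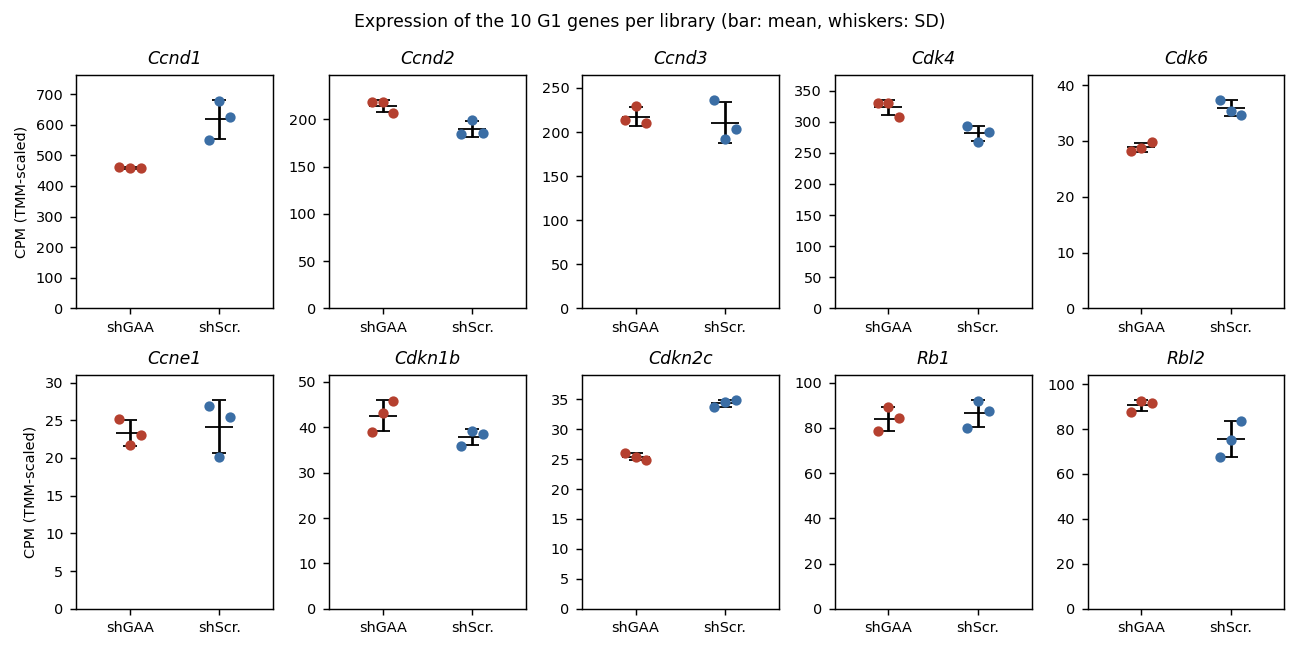
CPM of each of the 10 genes in every library, with shGAA (red) left of shScrambled (blue), the mean as a bar and the SD as whiskers (n = 3 each). The groups are apart for Ccnd1, Ccnd2, Cdk4, Cdk6, Cdkn2c and Rbl2, and overlap for Ccnd3, Ccne1, Cdkn1b and Rb1.

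Of the D cyclins, which carry mitogen signals to CDK4 and CDK6, Ccnd1 fell, Ccnd2 rose and Ccnd3 did not pass the test. Ccnd1, the cyclin D1 gene, had 463, 458 and 458 CPM in shGAA 1 to 3, against 549, 678 and 625 CPM in shScrambled 1 to 3. Every shGAA library was below every shScrambled library, the shGAA values were almost equal, and shScrambled 1 was the lowest of its group. The log2 fold change was -0.43 ± 0.06 (SE, adjusted p = 0.00011), which leaves 74.4% of the shScrambled level. Ccnd2, the cyclin D2 gene, had 218, 218 and 207 CPM in shGAA, against 184, 200 and 186 CPM in shScrambled. The groups were close but separate, and the log2 fold change was 0.18 ± 0.05 (adjusted p = 0.0107). This call was marginal, since the adjusted p was 0.0513 without shGAA 2 and 0.0507 without shScrambled 3.

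Ccnd3, the cyclin D3 gene, had 214, 230 and 210 CPM in shGAA, against 237, 193 and 203 CPM in shScrambled. The groups overlapped because shScrambled 1 was the highest of all 6 libraries, 0.26 above the mean of shScrambled 2 and 3 on the log2 scale. The log2 fold change was 0.05 ± 0.07 (95% interval -0.10 to 0.19, adjusted p = 0.637). Without shScrambled 1 it was 0.14 with an adjusted p of 0.0308, so the absence of a call rests on that library, and without shScrambled 2 it was -0.02. The summed CPM of the D cyclins was 895, 906 and 875 in shGAA and 970, 1070 and 1013 in shScrambled, lower in every shGAA library.

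Per kilobase of exon in the GENCODE M21 basic annotation, Ccnd1 made up 50.4% ± 1 of the D-cyclin RNA in shGAA and 59% ± 4.3 in shScrambled (SD, n = 3 each). Ccnd2 made up 13.1% ± 0.23 in shGAA and 10.1% ± 0.15 in shScrambled. Ccnd3 made up 36.5% ± 1.1 in shGAA and 30.9% ± 4.4 in shScrambled. The share of Ccnd1 was lower and that of Ccnd2 higher in every shGAA library than in any shScrambled library. The Ccnd3 shares were separate by a small margin, at 35.8% to 37.7% in shGAA and 27.2% to 35.7% in shScrambled. Without division by length they overlapped, at 23.9% to 25.3% in shGAA and 18% to 24.4% in shScrambled. These shares depend on the length used. With the exons of all annotated transcripts, among which Ccnd3 has long ones, the Ccnd3 share was 17.1% in shGAA and 13.8% in shScrambled.

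**Figure D2:**
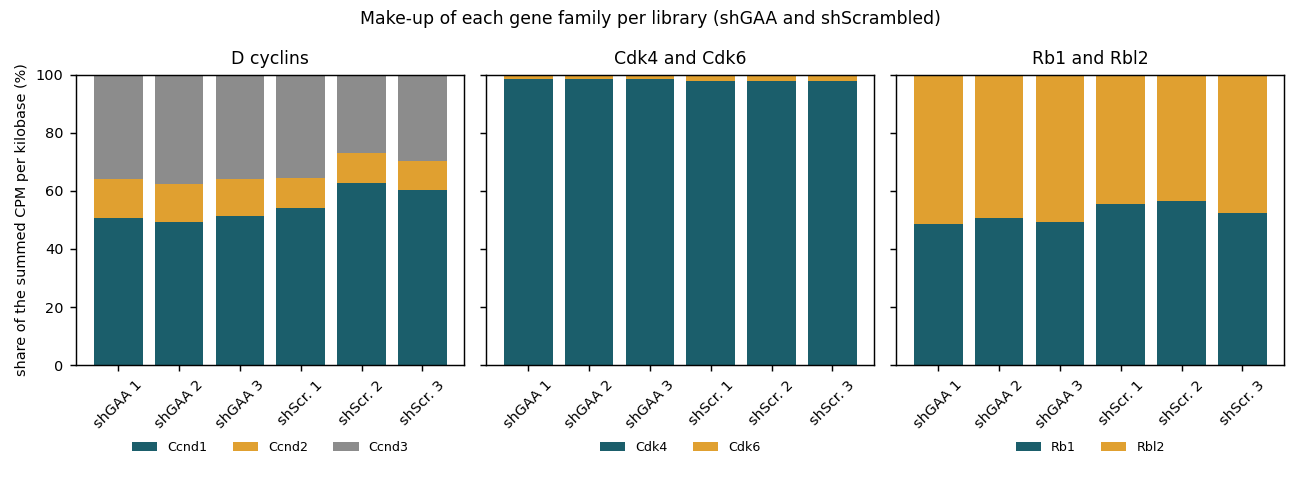
Share of each gene in the summed CPM per kilobase of its family (D cyclins, Cdk4 with Cdk6, and Rb1 with Rbl2), as 1 stacked bar per library with shGAA left of shScrambled. The Ccnd1 part of the bar is 49.2% to 51.2% in shGAA and 54.2% to 62.6% in shScrambled, and Cdk6 is at most 2.3% of its pair in any library.

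The kinases that partner the D cyclins moved in opposite directions. Cdk4 had 330, 330 and 308 CPM in shGAA, against 293, 268 and 283 CPM in shScrambled. All shGAA libraries were above all shScrambled libraries, and the log2 fold change was 0.20 ± 0.05 (adjusted p = 0.00415). Cdk6 had 28.2, 28.7 and 29.8 CPM in shGAA, against 37.4, 35.4 and 34.7 CPM in shScrambled. Its groups were also separate, with a log2 fold change of -0.31 ± 0.08 (adjusted p = 0.00468). Per kilobase of exon, Cdk4 reached 157 ± 6.15 CPM in shGAA and 137 ± 6.1 CPM in shScrambled, and Cdk6 reached 2.51 ± 0.0709 CPM in shGAA and 3.11 ± 0.121 CPM in shScrambled. Cdk4 was therefore the main kinase transcript of the pair in both groups, at 98.4% ± 0.11 in shGAA and 97.8% ± 0.084 in shScrambled.

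The promoter windows of these kinases, 250 bases before to 50 bases after an annotated start, are shown because the kinases moved apart. Capitals mark matches to the E-box pattern (CANNTG, the same on both strands). The windows come from RefSeq on GRCm38.p6, with Cdk4 at chr10:127063285-127063584 and Cdk6 at chr5:3343643-3343942, both on the plus strand. The Cdk4 window spans the first base of the gene, 127063535. The Cdk6 gene begins at base 3341004, so its window is at a start inside the gene, and no window at the gene's first base was searched.
Cdk4: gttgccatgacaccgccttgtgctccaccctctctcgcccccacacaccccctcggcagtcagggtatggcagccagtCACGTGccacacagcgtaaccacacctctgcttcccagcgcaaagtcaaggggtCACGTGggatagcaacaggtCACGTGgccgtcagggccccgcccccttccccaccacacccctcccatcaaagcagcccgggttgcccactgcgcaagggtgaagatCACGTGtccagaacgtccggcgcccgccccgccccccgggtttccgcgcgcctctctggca
Cdk6: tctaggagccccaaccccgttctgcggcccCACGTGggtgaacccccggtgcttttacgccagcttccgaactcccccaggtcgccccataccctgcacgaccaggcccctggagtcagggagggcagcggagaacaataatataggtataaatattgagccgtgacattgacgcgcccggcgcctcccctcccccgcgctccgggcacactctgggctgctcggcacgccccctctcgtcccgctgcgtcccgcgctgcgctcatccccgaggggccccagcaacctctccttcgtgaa
Cdk4 held 4 matches, which begin 172, 118, 98 and 11 bases before the start, and Cdk6 held 1, which begins 220 bases before it. All 5 have the letters CACGTG. Of 32851 promoter windows in the table, 72.3% hold CANNTG, 7.15% hold CACGTG and 8 hold CACGTG at least 4 times. The letters CACGTG were singled out after the sequences were seen. A match is a stretch of letters, and binding was not measured.

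Ccne1, the cyclin E1 gene, whose product activates CDK2 late in G1, did not pass the test. It had 25.1, 21.8 and 23.0 CPM in shGAA, against 26.9, 20.2 and 25.4 CPM in shScrambled. The groups overlapped fully, and the log2 fold change was -0.05 ± 0.11 with a 95% interval of -0.29 to 0.18 (adjusted p = 0.732). It had 188 to 262 counts per library and the largest SE of the set. Neither Ccne2 (cyclin E2), at -0.19 ± 0.11 (adjusted p = 0.205), nor Cdk2, at -0.01 ± 0.08 (adjusted p = 0.901), passed the test. Ccne2 was called lower without shScrambled 2, at -0.31 (adjusted p = 0.0266).

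The kinase inhibitors did not move together. Cdkn2c, which encodes p18, had 25.9, 25.4 and 24.9 CPM in shGAA, against 33.7, 34.5 and 34.8 CPM in shScrambled. Both groups were tight and far apart, and the log2 fold change of -0.43 ± 0.08 (adjusted p = 0.000372) left 74% of the shScrambled level. Cdkn1b, which encodes p27, had 38.9, 43.1 and 45.8 CPM in shGAA, against 36.0, 39.1 and 38.5 CPM in shScrambled. Its groups overlapped only between shGAA 1 and shScrambled 2, and the log2 fold change was 0.17 ± 0.08 (95% interval 0.01 to 0.34, adjusted p = 0.0932). It was called under scaling by library size alone, at 0.22 (adjusted p = 0.0364), and without shGAA 1, at 0.23 (adjusted p = 0.0499).

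Of the other inhibitor genes, Cdkn1a (p21, a p53 target) was higher at 728 ± 35.5 CPM in shGAA and 568 ± 4.51 CPM in shScrambled, a log2 fold change of 0.36 ± 0.04 (adjusted p = 9.85e-06). Cdkn2d (p19), which like Cdkn2c encodes an INK4 inhibitor, fell by 0.46 on the log2 scale (SE 0.10, adjusted p = 0.0011), at 17.3 ± 0.607 CPM in shGAA and 23.8 ± 1.14 CPM in shScrambled. Both measured INK4 genes were thus lower. The INK4 genes Cdkn2a and Cdkn2b had 0 counts in all 6 libraries, which allows up to 0.282 to 0.322 CPM per library (3 counts, counting error only). Cdkn1c (p57) had 4, 5 and 15 counts in shGAA and 5, 6 and 6 in shScrambled, too few for the test.

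Cdkn2c has start sites at more than one place in RefSeq, and the window at chr4:109665323-109665622 (minus strand) is shown because it holds the only E-box match of the gene, in capitals.
Cdkn2c: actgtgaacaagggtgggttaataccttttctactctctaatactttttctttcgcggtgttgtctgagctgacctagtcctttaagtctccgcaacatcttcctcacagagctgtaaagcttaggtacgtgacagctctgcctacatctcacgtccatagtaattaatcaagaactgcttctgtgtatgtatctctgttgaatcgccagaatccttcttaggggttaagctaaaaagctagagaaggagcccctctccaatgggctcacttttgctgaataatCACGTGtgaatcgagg
The match begins at base 35 counted from the start and also reads CACGTG. The other Cdkn2c window, at chr4:109666707-109667006, holds none, and its GC content is 73.3%, against 44% here.

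Of the pocket protein genes, Rbl2 rose and Rb1 did not pass the test. Rbl2, whose product p130 is the pocket protein of resting and differentiated cells, had 87.7, 92.3 and 91.5 CPM in shGAA, against 67.7, 75.0 and 83.8 CPM in shScrambled. The groups were separate by the gap between shGAA 1 and shScrambled 3, and the shScrambled libraries were the more scattered. The log2 fold change was 0.26 ± 0.07 (adjusted p = 0.00625). Rb1, the retinoblastoma gene, had 78.7, 89.3 and 84.4 CPM in shGAA, against 80.0, 91.9 and 87.3 CPM in shScrambled. Its groups overlapped throughout, with a log2 fold change of -0.04 ± 0.07 and a 95% interval of -0.18 to 0.10 (adjusted p = 0.669). Rbl1, the p107 gene and the pocket protein gene of dividing cells, fell by 0.45 on the log2 scale (SE 0.10, adjusted p = 0.0026), at 34.3 ± 2.62 CPM in shGAA and 46.8 ± 6.81 CPM in shScrambled.

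The Rbl2 window at chr8:91069807-91070106 (plus strand) held the only match in the set to CHR (TTTGAA, read on both strands), the element bound by the DREAM complex, of which p130 is a subunit. It is in capitals and begins 201 bases before the start.
Rbl2: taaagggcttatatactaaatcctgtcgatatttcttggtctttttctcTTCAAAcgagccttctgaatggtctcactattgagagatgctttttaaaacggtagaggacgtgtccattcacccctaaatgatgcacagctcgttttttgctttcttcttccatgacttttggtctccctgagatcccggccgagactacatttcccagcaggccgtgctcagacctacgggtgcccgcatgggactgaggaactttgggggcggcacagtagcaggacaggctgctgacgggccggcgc
CHR letters occur in 17.9% of all windows. None of the 9 windows found for 7 of the 10 genes held a core E2F site (TTTCCCGC, TTTGGCGC, TTTGCCGC or TTTCGCGC on either strand), which 2.26% of all windows hold, and no matches overlapped. Those 9 windows belong to Ccnd3, Cdk4, Cdk6, Ccne1, Cdkn1b, Cdkn2c and Rbl2. Their GC content ran from 44% to 76%, against a median of 52.7% over all windows.

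**Figure D3:**
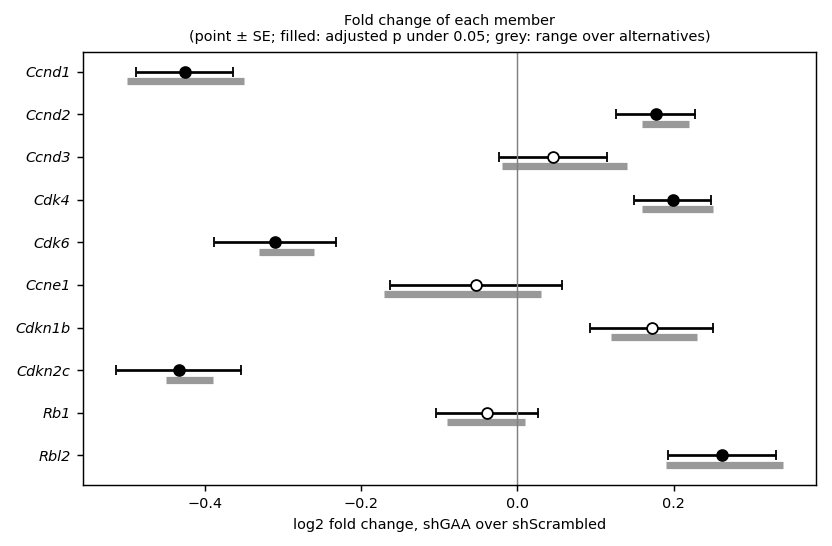
Log2 fold change of each gene, shGAA over shScrambled, with its SE; filled points have an adjusted p under 0.05 and grey bars span 13 other processing choices. Ccnd1 (-0.50 to -0.35), Cdk6 (-0.33 to -0.26) and Cdkn2c (-0.45 to -0.39) stay below 0, and Cdk4 (0.16 to 0.25), Ccnd2 (0.16 to 0.22) and Rbl2 (0.19 to 0.34) stay above it.

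Whether related genes differed in their response was asked from the log2 ratio of their counts in each library, which does not depend on the scaling, for 6 pairs. The ratio of Ccnd1 to Ccnd2 was 1.08, 1.07 and 1.14 in shGAA and 1.58, 1.76 and 1.75 in shScrambled, a difference of -0.60 ± 0.06 (SE). For Ccnd1 to Ccnd3 the difference was -0.47 ± 0.18, and it was -0.64 without shScrambled 1 and -0.34 without shScrambled 2. The ratio of Cdk4 to Cdk6 was 3.55, 3.52 and 3.37 in shGAA and 2.97, 2.92 and 3.03 in shScrambled, a difference of 0.51 ± 0.06. The groups were separate in each of these pairs.

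The ratio of Rb1 to Rbl2 was -0.16, -0.05 and -0.12 in shGAA and 0.24, 0.29 and 0.06 in shScrambled, a difference of -0.31 ± 0.08. Rb1 thus had fewer counts than Rbl2 in every shGAA library and more in every shScrambled library. Counts of different genes also depend on their lengths, so this does not order their levels. Per kilobase of basic exon, Rb1 made up 48.7%, 50.6% and 49.4% of the pair in shGAA 1 to 3. For Cdkn1b to Cdkn2c the difference was 0.60 ± 0.09, from 0.58 to 0.88 in shGAA and 0.09 to 0.18 in shScrambled. Each of these 5 pairs gave p = 0.1 in an exact two-sided permutation test (adjusted p = 0.12 over 6 pairs), the smallest p that 3 against 3 libraries allow. For Ccnd1 to Ccnd2 and Cdk4 to Cdk6 this outcome was fixed by the single genes. Their CPM were already apart in opposite directions, so the test adds nothing for these pairs. Ccnd2 to Ccnd3 overlapped between the groups, with a difference of 0.13 ± 0.12 (exact permutation p = 0.5), which was 0.02 without shScrambled 1 and 0.23 without shScrambled 2.

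**Figure D4:**
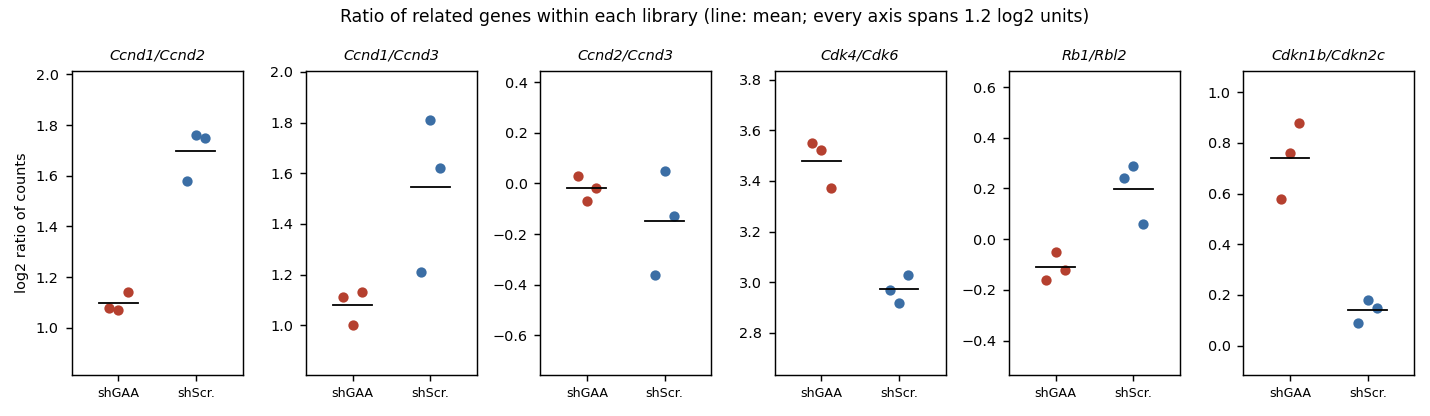
Log2 ratio of the counts of related genes in each library, shGAA (red) left of shScrambled (blue), with the mean as a line; every panel spans the same number of log2 units. In 5 of the 6 pairs the groups are apart, and Ccnd2/Ccnd3 overlaps.

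By level per kilobase of exon, the order in shGAA was Cdk4, Ccnd1, Ccnd3, Ccnd2, Rbl2, Rb1, Ccne1, Cdkn2c, Cdkn1b and Cdk6, from 157 to 2.51 CPM. In that order the library ranges overlapped between Rbl2 and Rb1 and between Cdkn2c and Cdkn1b. In shScrambled the order was Ccnd1, Cdk4, Ccnd3, Ccnd2, Rb1, Rbl2, Cdkn2c, Ccne1, Cdkn1b and Cdk6, from 165 to 3.11 CPM, with overlap between Cdkn2c and Ccne1. Cdk4 thus ranked above Ccnd1 in shGAA and below it in shScrambled. With the exons of all annotated transcripts the Cdk4 and Ccnd1 ranges overlapped in shGAA, so the upper rank in shGAA is not settled. Their means were 99.4 ± 3.89 and 97.6 ± 0.577 CPM per kilobase (SD, n = 3). Lower ranks also changed with these lengths. In shGAA, Rb1 then ranked above Rbl2 without overlap, and Ccne1 ranked below Cdkn2c and Cdkn1b with overlapping ranges. In shScrambled, Cdkn2c then ranked above Rbl2 without overlap. The order of these genes thus depends on the length used.

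Reads of several members may not be fully separate from those of neighbours, since the strand setting used in counting is not given. Ccnd1 overlaps LTO1 (Oraov1 in the table) on the opposite strand over 23.4% of its exonic bases, and Oraov1 was at -0.07 ± 0.11 (adjusted p = 0.659). Cdk4 overlaps Tspan31 over 19.7%, and Tspan31 was at 0.03 ± 0.06 (adjusted p = 0.692). Rbl2 overlaps Aktip and a predicted gene over 21%, and Aktip was at -0.08 ± 0.07 (adjusted p = 0.402). Oraov1, Tspan31 and Aktip were thus not called, and the predicted gene at Rbl2, Gm45464, was not among the counted genes. Ccnd2 overlaps 9330179D12Rik and Gm43126 over 7.9% and Cdk6 overlaps Gm17590 over 2.6% of their exonic bases, and no fold change of those genes is given here. The gene 9330179D12Rik had 1 count in shGAA 1 and 0 in every other library. Neither Gm43126 nor Gm17590 was among the counted genes. Rb1 overlaps Lpar6 and Rcbtb2 over 14.9%, and Rcbtb2 rose by 0.42 (SE 0.13, adjusted p = 0.0155). Ccnd3 overlaps Bysl over 4.1%, and Bysl fell by 0.31 (SE 0.07, adjusted p = 0.00119). The part of these neighbours in the Rb1 and Ccnd3 values was not tested. Cdkn1b, Cdkn2c and Ccne1 overlap no other annotated exon and share 0% of their 50-base stretches with other genes. Some members share 50-base stretches with genes that do not overlap their exons. These are Aff4 and Cspg5 for Cdk4, Ccnd3-ps and Atp5l for Ccnd3, and Gm16505 and E030030I06Rik for Cdk6. How such reads were counted depends on the multi-mapping rule, which is not given.

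Of 55 other genes of the G1/S pathway, 52 were tested, of which 4 rose, 23 fell and 25 did not pass, a called share of 51.9% beside 38.2% of all tested genes, with a median of -0.19. Under the 13 other processing choices the falls ranged from 17 (without shGAA 2) to 27 (without shScrambled 2). Of 7 further kinase and cyclin genes, 28.6% were called, also beside 38.2%. Cdk7, the kinase that activates CDKs, rose by 0.37 (SE 0.07, adjusted p = 0.000335). Ccna2, the cyclin of S phase and G2, fell to 106 ± 10.3 CPM in shGAA, against 173 ± 12.7 CPM in shScrambled, a log2 fold change of -0.71 ± 0.07 (adjusted p = 2.42e-06). The other 5 did not pass.

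Of 17 further pocket protein, E2F, DP and DREAM genes, 1 rose, 6 fell and 10 did not pass, with a median of -0.13. The called share of 41.2% was close to the 38.2% of all tested genes. Tfdp2, a partner of E2F proteins, rose by 0.43 (SE 0.07, adjusted p = 0.000246). Besides Rbl1, E2f4 (-0.34 ± 0.07, adjusted p = 0.000616), E2f6 (-0.33 ± 0.07) and E2f2 (-0.59 ± 0.13) were lower. E2f4 encodes the E2F that p130 binds in resting cells, and E2f2 an activating E2F. E2f2 had 23.5, 23.0 and 23.2 CPM in shGAA, against 43.6, 29.3 and 32.3 CPM in shScrambled, where shScrambled 1 was the highest. E2f1, the best known activating E2F, was at -0.07 ± 0.09 (adjusted p = 0.541).

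Of 6 ubiquitin ligase genes that set the turnover of G1 cyclins and p27, 1 rose, 2 fell and 3 did not pass, a called share of 50% beside 38.2% of all tested genes. Fbxw7, whose product marks cyclin E for degradation, fell to 20.7 ± 1.48 CPM in shGAA, against 35.4 ± 2.96 CPM in shScrambled (-0.77 ± 0.09, adjusted p = 6.28e-06). Skp2, whose product marks p27 for degradation, rose by 0.38 (SE 0.11, adjusted p = 0.012), and its cofactor gene Cks1b fell by 0.27 (SE 0.08, adjusted p = 0.0124). The calls of Skp2 and Cks1b were marginal, with an adjusted p of 0.0641 and 0.0604 for Skp2 without shGAA 3 and without shScrambled 2, and 0.0614 for Cks1b without shGAA 2.

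Of 20 S-phase genes known as E2F targets, 13 fell and 7 did not pass, with a median of -0.25 (65% called lower, beside 19.7% of all tested genes). Under the 13 other processing choices the falls ranged from 9 (without shGAA 3) to 16 (without shScrambled 2). The count of rises was 0 in edgeR, at an unadjusted p under 0.05 as well, and 0 in DESeq2. All 20 had a fold change below 0, which held for 19 when libraries were scaled by size alone. Tk1 (thymidine kinase) fell by 0.55 (SE 0.09, adjusted p = 8.73e-05), Uhrf1 (maintenance of DNA methylation) by 0.52 (SE 0.08, adjusted p = 0.000118), Cdt1 (licensing of replication origins) by 0.51 (SE 0.11, adjusted p = 0.00165) and Mcm2 (replicative helicase) by 0.32 (SE 0.06, adjusted p = 0.000305). The list summed to 1409 to 1518 CPM in shGAA and 1574 to 1829 CPM in shScrambled. Every shGAA sum was below every shScrambled sum. The median gene of this list was 0.14 higher in shScrambled 1 than the mean of shScrambled 2 and 3.

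**Figure D5:**
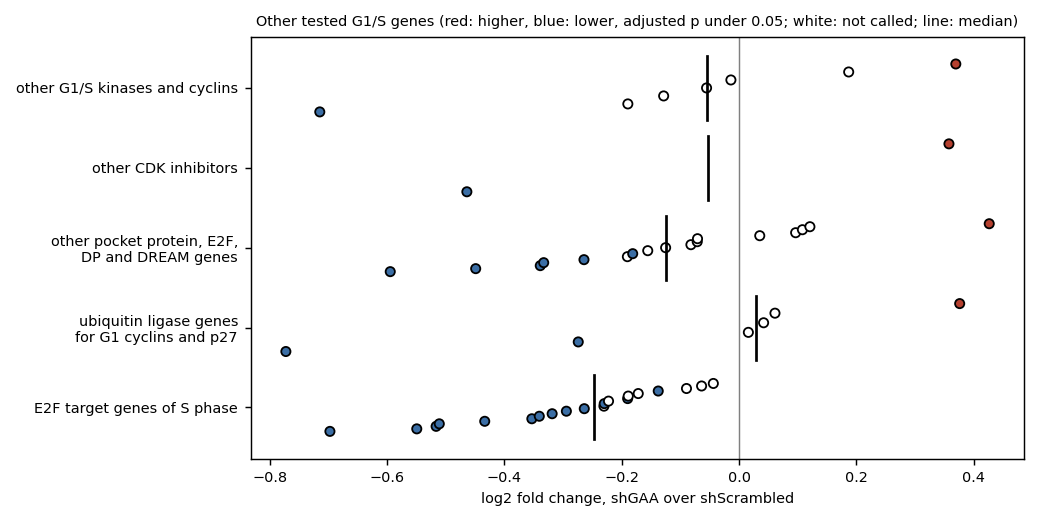
Log2 fold change, shGAA over shScrambled, of every tested gene of 5 other G1/S lists; red points were called higher and blue points lower, white points were not called, and the line is the median. All 20 E2F target genes lie below 0, while the other lists hold genes on both sides.

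The genes whose pattern over the 6 libraries was most like that of the largest riser and faller of the set were found by the root mean square difference of centred log2 CPM, among 10057 genes of at least 5 CPM. For Rbl2 they were Nid2 (a basement membrane protein, difference 0.020), Slc48a1 (a heme transporter, 0.034) and Tmco3 (0.035), with log2 fold changes of 0.24, 0.22 and 0.27. For Cdkn2c they were Rpl22l1 (a ribosomal protein paralog, 0.024), Carhsp1 (0.025) and the row named Mir682 (0.026), with log2 fold changes of -0.44, -0.41 and -0.44. The 10057 genes leave out symbols of predicted genes and clones (Gm with digits, ending in Rik, or AC, AL, BC or RP with digits). The similar fold changes follow from the selection, which used the same 6 libraries.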

How the data were processed

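The deposited file holds raw read counts for each gene symbol, with 1 column for each of the 6 libraries, as the authors made it. Per the submitters' processing notes, the build was mm10 and the tools were HISAT2 2.1.0, Subread, FastQC and edgeR. The annotation, strand setting and multi-mapping rule were not given in the sources used here.

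Genes were kept by filterByExpr, which left 11801 of 24421 symbols, and scaled by TMM. The test was edgeR 4.0.16's quasi-likelihood F-test in R 4.3.3 (robust, with group alone in the model), and p-values were adjusted by Benjamini-Hochberg across the tested genes, with a threshold of 0.05. The SE is the coefficient divided by the square root of F. The code was first tested on simulated data. Ratios between genes used log2 of counts plus 0.5. Alternatives were RLE size factors, library size alone, DESeq2 1.42.0, limma-voom 3.58.1, no count filter, a replicate block, a non-robust fit and leaving out each library. Lengths and overlaps came from GENCODE M21 and promoters from RefSeq, both on GRCm38, and protein sequences were not used here.

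The members and lists were chosen with earlier results of these data known. Genes named are the 10 members, Gaa, 10 relatives and landmarks, up to 4 called genes per direction of each G1/S list (2 for myotube and myoblast markers) with the smallest adjusted p, and the 3 genes most like the largest riser and faller. Mymk and Mymx were found as Tmem8c and Gm7325. Intervals and floors cover counting error or library spread only.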

Additional observations from a re-analysis of the deposited data

How the results depend on the processing

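Of 819 recomputed values, 783 kept their direction and side of the threshold or, without a test, stayed within a loose limit on size. Counts that stayed within this limit still varied. Genes higher in shGAA numbered 1627 in DESeq2 and 2809 under scaling by library size alone. Members higher numbered 2 without shGAA 2 and 4 under scaling by library size alone. Among members, Ccnd1, Cdk4, Cdk6, Cdkn2c and Rbl2 were called under all 13 alternatives. Ccnd2 lost its call without shGAA 2 (0.17) and without shScrambled 3 (0.16). On leaving out a library, some genes not called with all 6 libraries changed sign. They ranged from -0.02 to 0.14 for Ccnd3 (called at 0.14, without shScrambled 1), -0.17 to 0.03 for Ccne1 and -0.09 to 0.01 for Rb1. Cdk2 ranged from -0.07 to 0.03 and E2f1 from -0.15 to 0.01. Cdkn1b and Ccne2, also not called with all 6 libraries, kept their sign, at 0.12 to 0.23 and -0.31 to -0.09. Scaled by library size alone, Rb1 was at 0.01 and Cdk2 at 0.03. The cause was not tested. Between 29.7% and 40.9% of tested genes were called under the alternatives. The same-numbered libraries share only a number, with correlations of deviations of -0.039, 0.056 and -0.011. With the replicate block, 2037 genes were higher and 2197 lower and the members stayed at 3 higher and 3 lower, while the gene pairs, taken as same-numbered differences, can reach no p under 0.25. Without length, Ccnd1 made up 51.5% of D-cyclin CPM in shGAA, Ccnd2 24.1% in shGAA and 18.6% in shScrambled, and Ccnd3 24.4% in shGAA and 20.8% in shScrambled. With the exons of all transcripts, chosen after seeing the data, the shares in shGAA and shScrambled were 67.2% and 74.7% for Ccnd1, 15.7% and 11.5% for Ccnd2, and 17.1% and 13.8% for Ccnd3. Ccne1 had the fewest counts of the members, at 188 to 262, and the largest SE, at 0.11. Cdkn2c, at 238 to 328 counts, had an SE of 0.08, and the part of depth in this was not tested.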

Other observations

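Landmarks of differentiation differed between the groups in these cultures. Of 15 tested myotube markers, 12 fell, 0 rose and 3 did not pass, with a median of -0.60 (80% called lower, beside 19.7% of all tested genes). The count of rises was also 0 at an unadjusted p under 0.05 in edgeR and in DESeq2, and 1 under scaling by library size alone. Myog, the transcription factor that opens terminal differentiation, had 37.1, 38.6 and 36.3 CPM in shGAA, against 58.0, 49.6 and 42.9 CPM in shScrambled, a log2 fold change of -0.43 ± 0.09 (adjusted p = 0.00208). Des, the muscle intermediate filament gene, changed by -0.30 ± 0.04 (adjusted p = 4.31e-05), and Gm7325, the gene of the fusion peptide myomixer, by -1.05 ± 0.16 (adjusted p = 6.38e-05). The median myotube marker in shScrambled 1 was 0.37 above the mean of shScrambled 2 and 3.

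Of 6 tested markers of undifferentiated myoblasts, 3 rose and 3 did not pass, with a median of 0.37 (50% called higher, beside 18.5% of all tested genes). Id3, an inhibitor of myogenic factors, rose by 0.75 (SE 0.08, adjusted p = 4.59e-06), and Heyl, a Notch target, by 1.14 (SE 0.12, adjusted p = 3.9e-05).

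Markers of other cell types were mostly near 0. Leukocyte markers summed to 1.5 to 2.65 CPM in shGAA and 2.68 to 3.09 CPM in shScrambled, with Cd3e and Itgam at 0 counts. Endothelial markers summed to 4.39 to 5.44 CPM in shGAA and 2.67 to 5.15 CPM in shScrambled. Adipocyte markers summed to 8.55 to 10.6 CPM in shGAA and 13.0 to 18.9 CPM in shScrambled, with Plin1, Lep and Cidec at 0 counts. Osteoblast and chondrocyte markers summed to 0.32 to 0.408 CPM in shGAA and 0.107 to 0.32 CPM in shScrambled. Fibroblast markers, several of which myoblasts also express, summed to 5165 to 5325 CPM in shGAA and 4667 to 4721 CPM in shScrambled, with Thy1 at 0 counts, and of 6 tested, 3 rose and 2 fell, a called share of 83.3% beside 38.2% of all tested genes. The part of these markers in the values of the G1 genes was not tested.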
